A study of Homo sapiens with 4 samples.

Results

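The genes described here are 10 genes of MHC class II antigen presentation: HLA-DRA, HLA-DRB1, HLA-DPA1, HLA-DPB1, HLA-DMA, HLA-DMB, CD74, CIITA, RFX5 and RFXANK. They were matched by symbol, and all 10 were found among the 60675 genes of the tables. They were named with results of the comparison between the lines in view, so their differences between the lines are given as a description and no test is read from them. Poly(A) RNA was sequenced from MM134, a human cell line of invasive lobular breast carcinoma. Of the 4 libraries, HER2 WT 1 and 2 came from the MM134 HER2WT line and HER2 L755S 1 and 2 from the HER2L755S line, in which the kinase domain of HER2 (gene ERBB2) carries the substitution L755S. All 4 shared the same treatment, estrogen deprivation for 7 days: cells at 70% confluence were moved to phenol red-free medium whose 5% serum had been stripped with charcoal, and no library of estrogen-fed cells was compared. The labels do not say how HER2 was altered, whether a line was 1 clone, or whether its libraries were separate cultures, so p-values measure a spread between libraries that may be technical. Values of a line are given in the order number 1, number 2 throughout.

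MHC class II molecules are pairs of an alpha and a beta chain that display peptides from the endosomal pathway to CD4+ T cells. They are made constitutively by B cells, dendritic cells and other professional antigen-presenting cells, and interferon-gamma can induce them in many epithelial and tumour cells. In their promoters the X box is bound by the RFX complex (RFX5, RFXANK and RFXAP) and by CREB family factors, and the Y box, an inverted CCAAT sequence, is bound by NF-Y. The coactivator CIITA binds no DNA itself but docks on these proteins, and its amount is generally what limits class II transcription.

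The promoters are shown first because the X box and Y box described above lie in promoters of this family. The 250 bases before the RefSeq start sites (GRCh38.p14) were searched on both strands for an X box core (AG, any 2 bases, AC, any 2 bases, ATG) and a Y box (GATTGG). Of the 10 genes, 8 were found in the promoter table, some with several start sites; HLA-DRA and CIITA were not among them. Windows are shown for HLA-DRB1, HLA-DMA and HLA-DMB, which held an X box core and a Y box and were lower in HER2 L755S libraries. That of HLA-DQB1, a class II gene outside the 10, is shown because it held both and was not lower. HLA-DRB5 and 1 of 3 start sites of RFX5 also held both but are not shown. The window of CD74 is shown because this gene was lower and held no match to either motif. It does hold CCAAT, but followed by G, so the 6 letters of the Y box were not matched. The CD74 window also holds AGAAACAAGTG, which differs from the X box core only in a G in place of its last A. Each printed window is written 5′ to 3′ on the strand of its gene, the minus strand in all 5. Matches to either motif on either strand are in capitals.
HLA-DRB1: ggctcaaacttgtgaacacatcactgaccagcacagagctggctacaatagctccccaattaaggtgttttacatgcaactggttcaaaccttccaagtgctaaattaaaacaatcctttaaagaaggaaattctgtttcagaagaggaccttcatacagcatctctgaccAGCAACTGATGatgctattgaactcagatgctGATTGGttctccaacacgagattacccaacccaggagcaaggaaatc
HLA-DMA: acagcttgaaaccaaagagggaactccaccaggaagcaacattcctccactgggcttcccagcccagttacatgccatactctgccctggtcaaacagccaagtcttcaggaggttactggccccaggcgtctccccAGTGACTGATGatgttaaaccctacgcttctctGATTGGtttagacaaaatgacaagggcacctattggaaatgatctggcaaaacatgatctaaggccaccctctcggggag
HLA-DMB: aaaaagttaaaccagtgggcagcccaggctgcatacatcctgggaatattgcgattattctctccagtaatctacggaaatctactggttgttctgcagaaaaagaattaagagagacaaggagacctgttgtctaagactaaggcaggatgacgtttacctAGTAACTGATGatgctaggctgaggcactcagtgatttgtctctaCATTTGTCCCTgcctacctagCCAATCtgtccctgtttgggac
HLA-DQB1: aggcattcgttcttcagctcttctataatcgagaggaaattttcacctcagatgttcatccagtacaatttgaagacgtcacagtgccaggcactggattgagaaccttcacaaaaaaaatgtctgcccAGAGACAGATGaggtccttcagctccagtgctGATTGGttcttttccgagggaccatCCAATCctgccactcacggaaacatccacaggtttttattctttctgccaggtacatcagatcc
CD74: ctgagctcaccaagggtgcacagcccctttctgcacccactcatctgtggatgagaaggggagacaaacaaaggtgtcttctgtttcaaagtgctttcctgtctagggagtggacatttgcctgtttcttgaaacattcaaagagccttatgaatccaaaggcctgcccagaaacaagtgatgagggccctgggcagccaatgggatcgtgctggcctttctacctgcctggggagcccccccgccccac
On GRCh38 the windows lie at chr6:32589849-32590098 for HLA-DRB1, chr6:32953098-32953347 for HLA-DMA, chr6:32941029-32941278 for HLA-DMB, chr6:32666658-32666907 for HLA-DQB1 and chr5:150412911-150413160 for CD74. Those of HLA-DMA, HLA-DMB, HLA-DQB1 and CD74 overlap the gene's own span in GENCODE 29, in which some transcripts start further upstream.

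In HLA-DRB1 the X box core began 79 bases and the Y box 47 bases before the start site. In HLA-DMA they began 113 and 80 bases before it, and in HLA-DQB1 121 and 89 bases before it. The first letters of the motifs were thus 32 bases apart in HLA-DRB1 and HLA-DQB1 and 33 bases apart in HLA-DMA, both motifs on the strand of the gene. HLA-DMB held an X box core 88 bases before its start on the gene strand, a second on the other strand, and a Y box on the other strand only. HLA-DPB1 held a Y box without an X box core, neither start site of HLA-DPA1 held a match, and 1 of 3 start sites of RFX5 held both motifs. Over all 35116 windows in the table, 2.18% held the X box core, 14.1% the Y box and 0.262% both. An X box core followed by a Y box at 32 or 33 bases on the gene strand, a spacing chosen after these matches were seen, was found in 4 windows, those of HLA-DRB1, HLA-DRB5, HLA-DMA and HLA-DQB1. These genes are related by descent, and a match of letters is not a measured binding site; a window without a match says only that these letters are not in it.

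**Figure D1:**
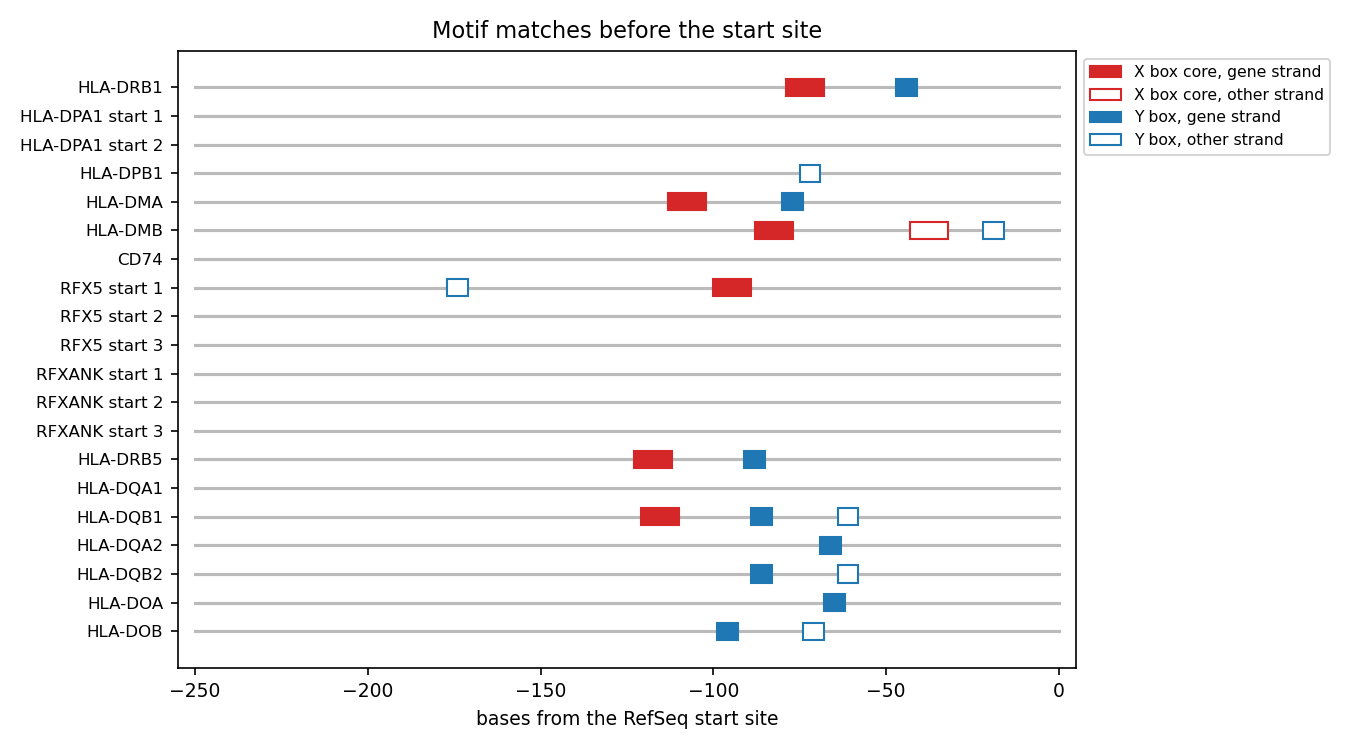
Positions of X box core (red) and Y box (blue) matches in bases from the RefSeq start site, for the start sites of the class II genes, CD74, RFX5 and RFXANK; filled boxes are on the gene strand and open boxes on the other. HLA-DRB1, HLA-DRB5, HLA-DMA and HLA-DQB1 share an X box core followed by a Y box at 32 or 33 bases.

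The 10 genes fell into 3 levels in HER2 WT cells. In TPM, which is scaled by transcript length and so allows genes to be compared, RFXANK, CD74 and RFX5 were highest, at 46.04 TPM or above in both HER2 WT libraries. HLA-DRA and HLA-DMA stood between 7.08 and 20.1 TPM, and HLA-DRB1, HLA-DMB, CIITA, HLA-DPA1 and HLA-DPB1 below 2 TPM. In HER2 L755S cells the 3 genes of the surface DR molecule and its chaperone (HLA-DRA, HLA-DRB1 and CD74), both DM genes and CIITA were all lower in TPM than in either HER2 WT library. RFX5 was lower too, by less, at 40.22 and 30.97 TPM against 51.49 and 50.02 TPM, and RFXANK overlapped. TPM also depends on the mean transcript length estimated for RFX5, 2350 bases in HER2 WT 2 and 2841 in HER2 L755S 2. As counts scaled by library size only (CPM), RFX5 stood at 83.9 in HER2 WT 2 and 80.5 in HER2 L755S 2.

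**Figure D2:**
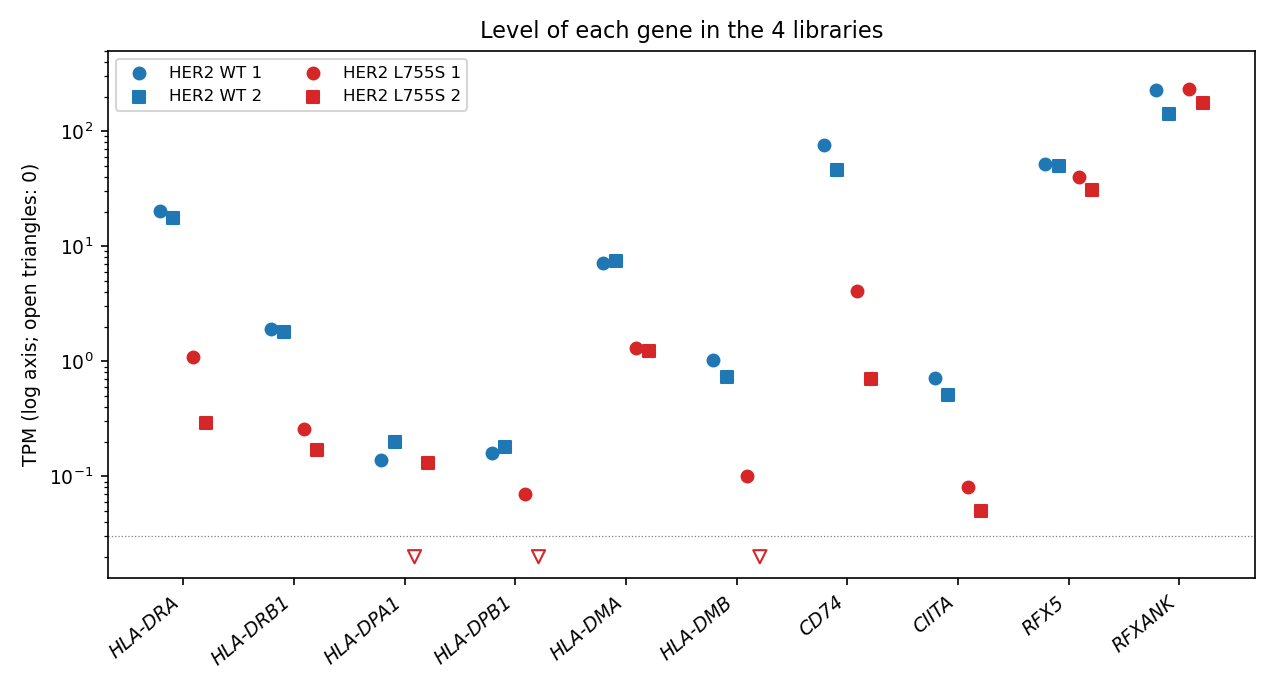
Level of the 10 genes in TPM (log axis) in each library; blue is HER2 WT, red is HER2 L755S, circles are number 1 and squares number 2 libraries, and open triangles mark 0 TPM. In TPM, all genes except RFXANK are lower in both HER2 L755S libraries than in both HER2 WT libraries, RFX5 by little. HLA-DPA1 and HLA-DPB1 rest on 5 counts or fewer per library, and the counts of HLA-DPA1 overlap between the lines.

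HLA-DRA (ENSG00000204287, GRCh38 chromosome 6, 32439842 to 32445046) encodes the alpha chain of the DR molecule. Its expected count was 522 and 428 in the HER2 WT libraries, and 26 and 7 in the HER2 L755S libraries. With TMM scaling these were 16.1 and 14.7 CPM, a count divided by library size, against 0.889 and 0.273 CPM. Both HER2 WT libraries were therefore far above both HER2 L755S libraries, and the mean went from 15.4 ± 0.982 to 0.581 ± 0.436 CPM (SD, n = 2). The fitted log2 difference was -4.70 (SE 0.55), or 26.04-fold, with -4.16 between the number 1 libraries and -5.67 between the number 2 libraries. In bulk RNA, fewer cells with class II transcripts and fewer transcripts in each cell cannot be told apart.

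HLA-DRB1 (chromosome 6, 32578769 to 32589848) encodes the polymorphic beta chain that pairs with HLA-DRA. It stood at 1.48 and 1.41 CPM in the HER2 WT libraries and at 0.205 and 0.156 CPM in the HER2 L755S libraries, without overlap. The log2 difference was -2.97 (SE 0.66), or 7.82-fold, on 89 rounded counts in the HER2 WT and 10 in the HER2 L755S libraries. Its counts of 47.58 and 41.02 in HER2 WT libraries were not whole, as happens when RSEM divides reads among genes they fit equally. HLA-DRB5, a near-identical beta chain gene, had expected counts of 10.42 and 1.98 in the HER2 WT libraries and 0 in both HER2 L755S libraries. Most of its counts came from HER2 WT 1. How reads were split between these genes, and how far the alleles of this line match the reference, can change the level of either. HLA-DRA was 10.4 and 9.92 times as high as HLA-DRB1 in TPM in the HER2 WT libraries, and 4.15 and 1.71 times as high in the HER2 L755S libraries.

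HLA-DPA1 and HLA-DPB1 encode the DP molecule and lie beside each other on chromosome 6, with overlapping ends. HLA-DPA1 had 2 and 4 counts in the HER2 WT libraries and 0 and 5 in the HER2 L755S libraries. HLA-DPB1 had 4 and 3 counts against 2 and 0. At this depth neither could be compared: the ratio of HER2 WT to HER2 L755S was 1.07 (95% exact interval 0.273 to 4.45) for HLA-DPA1 and 3.13 (0.596 to 30.9) for HLA-DPB1, with intervals that cover counting error only. A count of 0 allows up to 3 counts, which is 0.103 CPM at the depth of HER2 L755S 1 and 0.117 CPM at that of HER2 L755S 2.

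HLA-DMA and HLA-DMB encode the DM molecule, which removes the invariant chain fragment from class II molecules and edits their peptides in endosomes. HLA-DMA (chromosome 6, 32948613 to 32969094) stood at 4.73 and 5.10 CPM in the HER2 WT libraries and at 0.752 and 1.09 CPM in the HER2 L755S libraries. The 2 lines did not overlap, and the log2 difference was -2.41 (SE 0.48), or 5.32-fold. HLA-DMB (chromosome 6, 32934629 to 32941070) had expected counts of 29.69 and 17 in the HER2 WT libraries, and 1 and 0 in the HER2 L755S libraries. The ratio of its rates was 42.0 with an exact 95% interval from 7.18 to 1695, so the size of the HLA-DMB difference was poorly fixed. The fitted log2 difference of -5.09 (SE 1.07) depends on how a single count is handled.

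CD74 (ENSG00000019582, chromosome 5, 150401637 to 150412929) encodes the invariant chain, which fills the groove of new class II molecules and guides them to endosomes. It lies on another chromosome than the HLA genes. Its counts were 2171 and 1209 in the HER2 WT libraries against 107 and 19 in the HER2 L755S libraries. These were 67.1 and 41.6 CPM against 3.66 and 0.740 CPM, again without overlap. The log2 difference was -4.61 (SE 0.64), or 24.5-fold. The ratio of CD74 to HLA-DRA was similar in the 2 lines at the same number: the TPM of CD74 was 3.81 times that of HLA-DRA in HER2 WT 1 and 3.75 times in HER2 L755S 1, and 2.61 times in HER2 WT 2 and 2.41 times in HER2 L755S 2. This is a description of 4 libraries.

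CIITA (ENSG00000179583, chromosome 16, 10866222 to 10943021), encodes the coactivator. Its expected count was 69.8 and 61.3 in the HER2 WT libraries, and 13.7 and 10.7 in the HER2 L755S libraries. In CPM these were 2.16 and 2.10 against 0.479 and 0.428, so the 2 libraries of each line were close to each other and the lines were apart. The log2 difference was -2.22 (SE 0.55), with -2.14 and -2.25 within numbers 1 and 2, a 4.66-fold difference. That is smaller than the differences of HLA-DRA and CD74, and close to that of HLA-DMA. RSEM's mean transcript length for CIITA, weighted by the estimated share of each isoform, was 4155 and 5506 bases in the HER2 WT libraries and 7712 and 9350 bases in the HER2 L755S libraries. The annotation has CIITA transcripts from 479 to 16059 bases. With so few counts the isoform shares are uncertain, and a longer mean length lowers the TPM of the same count: CIITA stood at 0.72 and 0.51 TPM against 0.08 and 0.05 TPM. The gene DEXI lies on the other strand inside the span of CIITA (10928891 to 10942460) and stood at 20.9 and 12.5 CPM in the HER2 WT libraries and at 17.2 and 11.8 CPM in the HER2 L755S libraries. CIITA counts were not whole in any library, and as the strand setting is not given, reads from DEXI within CIITA could not be told apart. DEXI was named for its position after its values were seen. What part they make of the CIITA counts left in HER2 L755S libraries was not tested.

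RFX5 and RFXANK encode the DNA-binding complex of the X box, on which CIITA docks. RFX5 (chromosome 1, 151340640 to 151347357) stood at 84.7 and 83.9 CPM in the HER2 WT libraries and at 67.5 and 80.5 CPM in the HER2 L755S libraries. Its log2 difference was -0.19 (SE 0.31), under 1 SE, although the libraries did not overlap. RFXANK (chromosome 19, 19192229 to 19201869) stood at 94.4 and 60.1 CPM against 97.3 and 92.6 CPM, with a log2 difference of 0.30 (SE 0.33). The lowest value was that of HER2 WT 2, and the other 3 libraries lay close together. The 2 RFX genes thus stood apart from the other 6 tested genes, whose log2 differences ran from -5.09 to -2.22.

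In the fit of all genes, 8 of the 10 passed the filter on low counts, and HLA-DPA1 and HLA-DPB1 did not. At an adjusted p under 0.05 (edgeR's quasi-likelihood test with Benjamini-Hochberg adjustment over 16538 genes), HLA-DRA, CD74, HLA-DMA and HLA-DMB were past the threshold, all lower. Of all tested genes 0.949% were called lower and 0.738% higher. Of the 8, 7 were lower in both HER2 L755S libraries than in both HER2 WT libraries, against 19.3% of all tested genes. Because the genes were chosen on this comparison, nothing is read from these counts. The median log2 difference was -2.69 over the 8 genes and 0.0032 over all tested genes. HLA-DMA was no longer past the threshold without HER2 L755S 1, and HLA-DMB was not without HER2 WT 1 or with DESeq2.

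**Figure D3:**
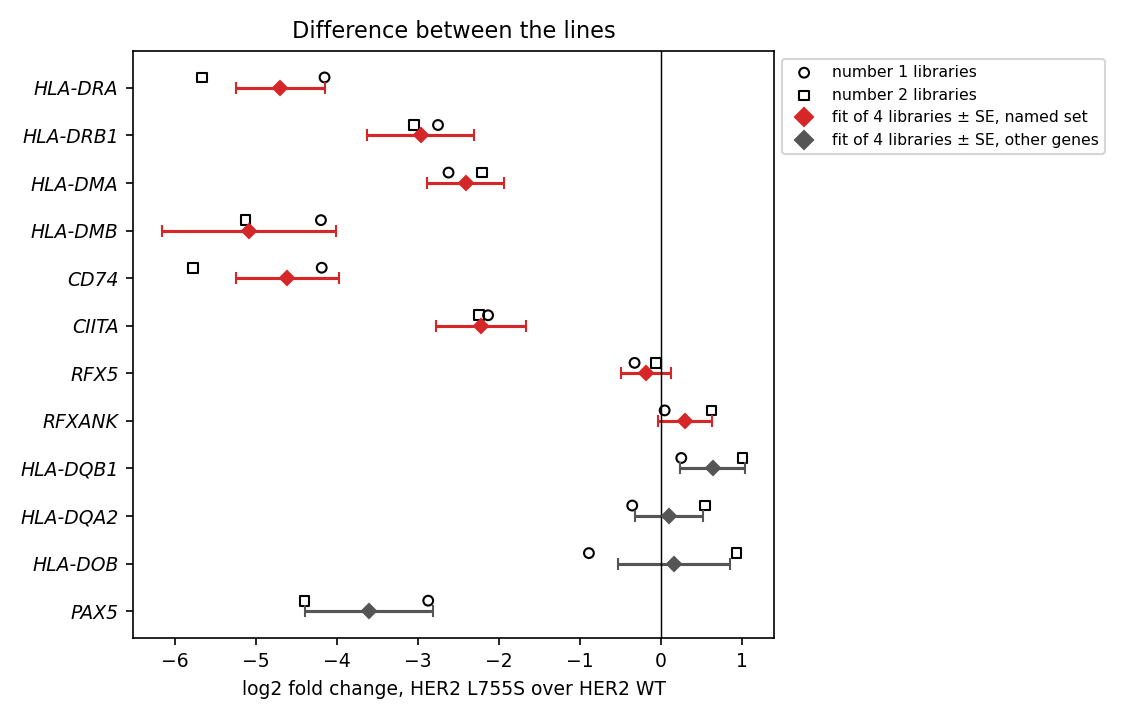
Log2 fold change of HER2 L755S over HER2 WT for the tested genes of the set (red diamonds ± SE, 2 libraries per line), for 3 further class II genes and PAX5 (grey), and within number 1 (open circles) and number 2 (open squares). HLA-DRA and CD74 lie at -4.70 and -4.61, CIITA at -2.22, RFX5 and RFXANK at -0.19 and 0.30, and the 3 further class II genes between 0.10 and 0.64.

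The 3 further class II genes that could be tested had small or positive differences. Of 10 such genes in the list 8 were found, and none of the 3 tested was called in either direction (edgeR, with 0 also at an unadjusted p under 0.05 and 0 by DESeq2). HLA-DQB1, the beta chain of DQ, stood at 4.97 and 4.03 CPM in the HER2 WT libraries and at 5.92 and 8.10 CPM in the HER2 L755S libraries. Its libraries did not overlap, HER2 L755S being higher, as for 16.9% of all tested genes, with a log2 difference of 0.64 (SE 0.40, edgeR adjusted p = 0.75). HLA-DQA2, a DQ-like alpha chain gene, stood at 5.34 and 3.99 CPM against 4.17 and 5.84 CPM, with a log2 difference of 0.10 (SE 0.42, edgeR adjusted p = 0.998). HLA-DOB, a chain of the DM inhibitor DO, stood at 0.649 and 0.482 CPM against 0.342 and 0.935 CPM (log2 0.16, SE 0.69). HLA-DQA1 was too low to test, with expected counts of 6 and 9 against 2 and 1, lower in both HER2 L755S libraries.

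The make-up of class II chain transcripts differed between the lines. Summed over the HLA-DR, DQ, DM, DP and DO genes found, the level was 42.1 and 36.7 TPM in the HER2 WT libraries and 14.9 and 12.9 TPM in the HER2 L755S libraries. DR genes took 53.1% of it in both HER2 WT libraries and 8.96% and 3.55% in the HER2 L755S libraries. DQ genes took 25.1% and 22.1% in the HER2 WT libraries and 78.7% and 78.8% in the HER2 L755S libraries. In TPM, HLA-DRA was 3.96 and 4.92 times as high as HLA-DQB1 in the HER2 WT libraries, and 0.143 and 0.0518 times as high in the HER2 L755S libraries. These shares restate the differences of the chosen genes and are a description.

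**Figure D4:**
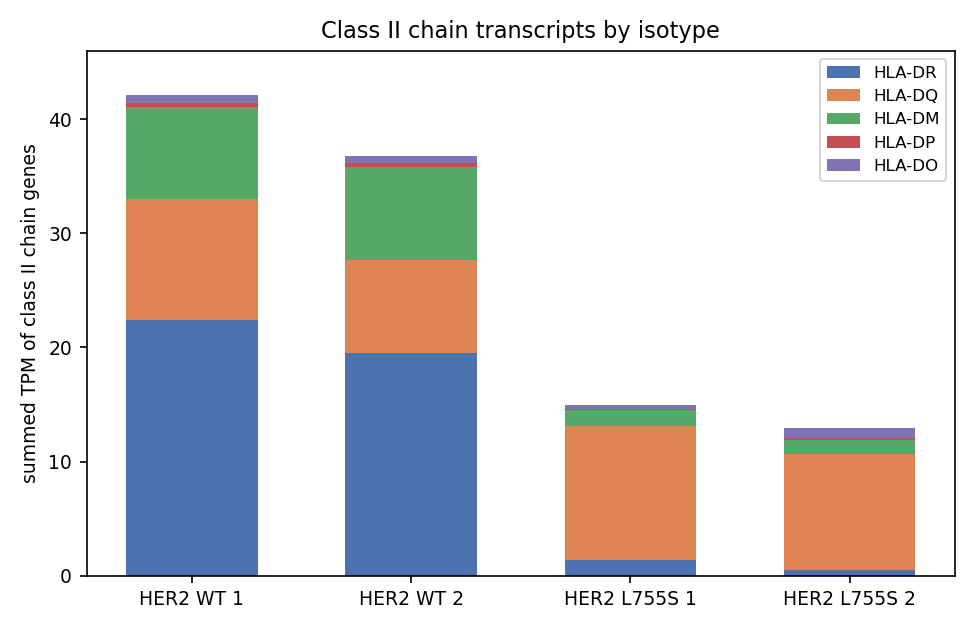
Summed TPM of the class II chain genes in each library, divided by isotype (DR, DQ, DM, DP and DO). The DR and DM parts are smaller in both HER2 L755S libraries, and the DQ part stays between 8.13 and 11.8 TPM in all 4.

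The 2 HER2 L755S libraries differed from each other in some of these genes and not in others. CD74 was lower in HER2 L755S 2 (0.740 CPM) than in HER2 L755S 1 (3.66 CPM), and so was HLA-DRA. HLA-DMA had 22 and 28 expected counts in HER2 L755S 1 and 2, a small gap on few counts, and CIITA was near equal in both. In the HER2 WT libraries CD74 was again lower in number 2 (41.6 against 67.1 CPM), while HLA-DRA, HLA-DMA and CIITA were close between the libraries. Mitochondrial transcripts took 4.395% and 4.03% of the counts of HER2 WT 1 and HER2 L755S 1, and 8.83% and 13.5% of those of HER2 WT 2 and HER2 L755S 2; their part in these differences was not tested.

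Genes that act with the 10, related genes and chromosomal neighbours were examined in 6 further lists with 88 tested entries. In edgeR's fit without a replicate term, none of these entries was called at an adjusted p under 0.05, and 4 had an unadjusted p under 0.05. That fit called 1.69% of all tested genes in either direction, and DESeq2 called 0 of the entries. When edgeR's fit included the replicate number, CD63, TAPBP and HLA-B passed the threshold as higher, and PSMB8 and SELENBP1 as lower. Of all tested genes, 6.16% were then lower and 4.38% higher. With 2 libraries per line, a gene that was not called is not shown to be unchanged. Of 15 partners at class II promoters, 8 had a positive and 7 a negative log2 difference, with a median of 0.00028. The smallest adjusted p-values were those of KAT2B, an acetyltransferase (0.82, adjusted p = 0.48), the NF-Y subunit NFYA (0.55, adjusted p = 0.73) and the deacetylase HDAC1 (-0.39, adjusted p = 0.85). RFXAP, the third RFX subunit, named for its role after its values were seen, stood at 2.441 and 2.996 CPM in the HER2 WT libraries and at 2.84 and 4.28 CPM in the HER2 L755S libraries.

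The interferon-gamma route that induces CIITA was measured by 15 genes, of which 13 were tested. IFNG, the cytokine gene, was at 0 counts in all 4 libraries. JAK1, a kinase of the receptor, stood at 199 and 304 CPM in the HER2 WT libraries and at 162 and 155 CPM in the HER2 L755S libraries (log2 -0.66, SE 0.32, edgeR adjusted p = 0.52). IFNGR1, a chain of the receptor, had a log2 difference of 0.49 (adjusted p = 0.80) and the kinase gene JAK2 one of -0.51 (adjusted p = 0.86). The median of the list was 0.12, and leaving out HER2 WT 1 gave -0.047, leaving out HER2 L755S 2 gave -0.043 and leaving out HER2 WT 2 gave 0.28.

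In the endosomal processing list, 15 of 16 genes were tested and the median was 0.10, or -0.22 without HER2 L755S 1 and -0.091 without HER2 WT 2. The endosomal tetraspanin gene CD63 had a log2 difference of 0.73 (SE 0.30, edgeR adjusted p = 0.38). MARCHF8, a ligase that removes surface class II molecules, had one of 0.61 (SE 0.35, edgeR adjusted p = 0.68). MARCHF8 stood at 99.0 and 90.5 CPM in the HER2 WT libraries and at 187 and 103 CPM in the HER2 L755S libraries. Its log2 difference was 0.11 without HER2 L755S 1. The protease genes CTSV and CTSB had log2 differences of -0.57 and 0.46. CTSS, named for its role after its values were seen, encodes the protease that trims the invariant chain in antigen-presenting cells and was too low to test, at 0.205 CPM or less in every library.

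Class I genes, which are driven by NLRC5 through the same RFX complex, had mostly small differences. Of 14 tested genes 10 had a positive log2 difference, with a median of 0.28, or 0.072 without HER2 L755S 1 and 0.11 without HER2 WT 2. TAPBP (0.78, SE 0.35) and HLA-B (0.71, SE 0.40) had the highest, and the immunoproteasome genes PSMB8 (-0.94, SE 0.40) and PSMB9 (-1.58, SE 0.71) the lowest (edgeR adjusted p = 0.47, 0.66, 0.41 and 0.46). PSMB8 stood at 10.01 and 9.64 CPM in the HER2 WT libraries and at 3.97 and 6.27 CPM in the HER2 L755S libraries. NLRC5 itself, named for its role after its values were seen, had a log2 difference of 0.10 (SE 0.41). Of 11 genes of co-stimulation and adhesion, 6 were tested. CD40, CD80, CD86 and PDCD1LG2 were at 0 counts in all 4 libraries, and CD274, the gene of PD-L1, had a log2 difference of -0.73 (SE 0.59, edgeR adjusted p = 0.88).

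Genes beside the 10 on their chromosomes were listed to see whether whole segments differed. Of 28 neighbours, 25 were tested, with log2 differences from -0.65 to 0.57 and a median of 0.0045. TAP2, PSMB8, TAP1 and PSMB9 (chromosome 6, 32821833 to 32859585) lie between HLA-DQB1 and HLA-DMB but were counted in the class I list only. Their log2 differences were 0.48, -0.94, -0.55 and -1.58, and none was called without the block. PSMB9 had 41 counts in the HER2 WT and 12 in the HER2 L755S libraries. TAP1 and TAP2 were named for their position after their values were seen. BRD2, whose span on chromosome 6 (32968660 to 32981505) begins within that of HLA-DMA, stood at 272 and 312 CPM in the HER2 WT libraries and at 292 and 261 CPM in the HER2 L755S libraries. CLEC16A, next to CIITA, had a log2 difference of -0.03 (SE 0.35). RPS14, near CD74, had one of 0.05 (SE 0.30). BRD2, CLEC16A and RPS14 were named for their position after their values were seen. The extremes of the neighbour list were SELENBP1 near RFX5 (-0.65, edgeR adjusted p = 0.55) and HSD17B8 on chromosome 6 (0.57, adjusted p = 0.71).

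**Figure D5:**
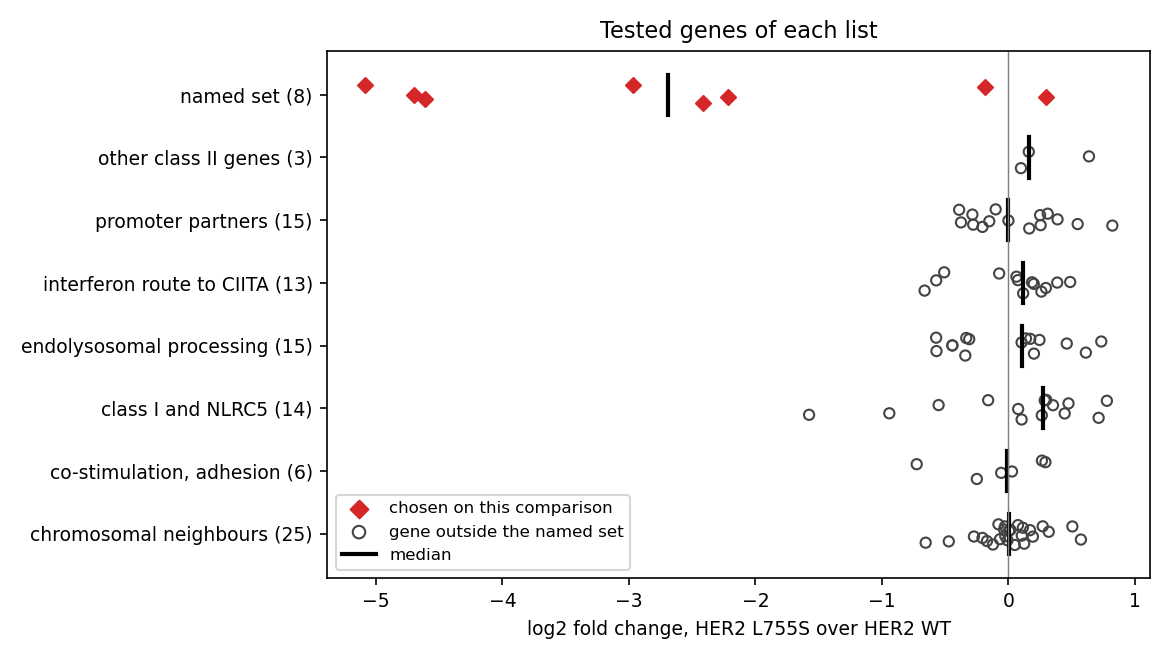
Log2 fold change of HER2 L755S over HER2 WT for each tested gene of the set (red diamonds) and of 7 lists outside it (open circles), with the median of each list as a bar and the number of tested genes in brackets. The 7 lists have medians from -0.01 to 0.28, and none of their genes was called in the fit without a replicate block.

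Markers were read to check the cells behind these values. All 10 luminal breast markers were present in every library, with a summed level of 9101 to 9844 CPM. None of them was called in edgeR's fit without a replicate term, where 2 had an unadjusted p under 0.05. DESeq2 also called 0 of them. ESR1, which encodes the estrogen receptor, stood at 176 and 282 CPM in the HER2 WT libraries and at 64.7 and 122 CPM in the HER2 L755S libraries, without overlap (log2 -1.29, SE 0.38, edgeR adjusted p = 0.15). Its adjusted p was 0.022 without HER2 WT 1, 0.011 without HER2 L755S 2 and 0.010 with no filter (edgeR). XBP1, EPCAM and GATA3, the next by adjusted p, were each higher in both HER2 L755S libraries, with log2 differences of 0.64, 0.52 and 0.39. The part of these markers in the class II values was not tested. Of 23 leukocyte markers, 10 were at 0 in all 4 libraries, among them the B cell gene MS4A1, the dendritic and macrophage genes ITGAX and CD163, and the T cell gene CD3E. The summed level was 7.97 and 4.75 CPM in the HER2 WT libraries and 6.67 and 4.25 CPM in the HER2 L755S libraries, so the groups overlapped, and CORO1A made up the largest part in each. PTPRC, which encodes the leukocyte antigen CD45, was at 0.0344 CPM or less in every library, while CD74 reached 67.1 CPM.

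PAX5, a B cell lineage factor, was the 1 called gene of the 3 tested leukocyte markers, where 0.949% of all tested genes were called lower. PAX5 had 70 rounded counts in the HER2 WT and 5 in the HER2 L755S libraries. It stood at 1.11 and 1.17 CPM in the HER2 WT libraries and at 0.137 and 0.0389 CPM in the HER2 L755S libraries, so that it fell by 3.60 on the log2 scale (SE 0.79, edgeR adjusted p = 0.048). Without HER2 WT 1, HER2 WT 2 or HER2 L755S 2 the adjusted p of PAX5 was 0.05007, 0.064 and 0.063, above the threshold in each case. CD79A, of the B cell receptor, was too low to test, with 2 counts in the HER2 WT and 16 in the HER2 L755S libraries. LAPTM5 had a log2 difference of 1.46 (SE 0.69, edgeR adjusted p = 0.51) and CORO1A one of -0.13 (SE 0.50).

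The genes whose profile over the 4 libraries was most like that of HLA-DRA, by Euclidean distance between centred log2 CPM values, were PLA2R1 (0.37), TSPAN6 (0.46), IFITM2 (0.47), SDCBP (0.52) and PHYHD1 (0.55). HLA-DMB and CD74 lay at 0.44 and 0.60 on the same measure. TSPAN6, for example, stood at 15.3 and 21.1 CPM in the HER2 WT libraries and at 0.991 and 0.273 CPM in the HER2 L755S libraries. Among those most like CIITA were HSPA2 (0.071), SH3TC2 (0.18), B4GALNT3 (0.21) and DCBLD2 (0.22), while HLA-DMA and HLA-DRB1 lay at 0.54 and 0.72. HSPA2, a heat shock protein gene, stood at 39.5 and 36.5 CPM against 8.41 and 7.67 CPM. RFX5 and RFXANK were far from both, at 4.91 and 5.38 from HLA-DRA and 2.02 and 2.56 from CIITA. The place of HLA-DMB rests on 1 count in the HER2 L755S libraries. In those libraries PLA2R1 stood at 0.034 and 0 CPM, SDCBP at 0.274 and 0.039 CPM and SH3TC2 at 0.103 and 0.078 CPM. The places of these genes thus rest on few counts too. These distances rest on 4 libraries and are a description.

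ERBB2, the altered gene, stood at 1934 and 1936 CPM in the HER2 WT libraries and at 2443 and 1203 CPM in the HER2 L755S libraries. Gene counts do not show the substitution, so they do not check the labels.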

How the data were processed

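Poly(A) RNA libraries, made from 250 ng of total RNA per the labels' protocols, were available for 2 lines with 2 libraries each. Groups and replicate numbers were taken from the titles. The deposited tables have the columns RSEM writes, per the file headers: an expected count for every gene, TPM (scaled for transcript length and library), FPKM (deposited by the authors, not used here) and a mean transcript length. STAR, edgeR and GRCh38 are named in the submitters' processing notes without role or version. The annotation release, strand setting and what was merged in the tables of number 2 are not given in the sources used here. Between 9.53% and 11.5% of genes had expected counts that were not whole.

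Expected counts (27423247 to 31088422 per library) were rounded, filtered with filterByExpr (16538 of 60675 genes kept), scaled with TMM (factors 0.937 to 1.04) and compared with edgeR 4.0.16 in R 4.3.3 (glmQLFit, glmQLFTest, two-sided, no replicate term, Benjamini-Hochberg adjustment, threshold 0.05). The SE is the log2 fold change divided by the root of the F statistic. Differences within a number use log2 CPM with a prior count of 0.5. The fit was tested on simulated data. Depth limits the genes with few counts, and intervals cover counting error only. Alternatives were DESeq2 size factors in edgeR, no filter, at least 50 counts in 2 libraries, DESeq2 1.42.0, a replicate block, and leaving out each library.

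The members, lists, motifs and tests were chosen with earlier results of these data known. Named genes are the 10 members, of each list every called gene and up to 4 others by adjusted p, the 5 genes with the profile nearest to that of HLA-DRA and of CIITA, and ERBB2; other genes are named as chosen after their values were seen. Some genes under this rule are not reported here. MARCHF1, MARCHF8 and TSBP1 were matched through their Ensembl identifiers, and HLA-DRB3 and HLA-DRB4 were not matched. Gene positions are from GENCODE 29 on GRCh38. Promoters are from RefSeq, GRCh38.p14.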

Additional observations from a re-analysis of the deposited data

How the results depend on the processing

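With 2 libraries per line and few counts for several genes, the errors are wide. The set was chosen on this comparison, and 7 of its 8 tested genes did not overlap between the lines in CPM. Leaving out a library could hardly change the direction of those 7, so the directions below are a description and no support is read from them. The log2 fold changes of the 8 tested genes of the set kept their direction under every alternative that could be fitted: -5.80 to -4.13 for HLA-DRA, -6.19 to -3.91 for CD74, -2.30 to -2.16 for CIITA, -2.71 to -2.17 for HLA-DMA, -3.18 to -2.81 for HLA-DRB1, -7.47 to -4.33 for HLA-DMB, -0.34 to -0.07 for RFX5 and 0.02 to 0.66 for RFXANK. Between 3 and 6 of them were past the threshold, all lower, with 6 under no filter and under the replicate block. Over all genes, 157 were called lower and 122 higher; these became 431 and 328 with no filter, 309 and 276 with DESeq2, and 1018 and 725 (6.16% and 4.38% of tested genes) with the replicate number as a block. Without 1 library they ranged from 177 to 338 lower and from 165 to 219 higher; the spread of the line left with 1 library is then assumed from the other line. With the block, 1 gene of the endosomal list was higher (CD63), 1 of the class I list lower (PSMB8) and 2 higher (TAPBP and HLA-B), and 1 chromosomal neighbour lower (SELENBP1), where all were 0 without it; ESR1 was also called lower (edgeR adjusted p = 0.00017). Without 1 library the list medians ran from -0.18 to 0.72 for the other class II genes, -0.21 to 0.28 for promoter partners, -0.34 to 0.18 for co-stimulation and -0.16 to 0.18 for neighbours, so none of these medians has a fixed sign. The libraries of number 1 deviated together from their line means (r = 0.649 over 11473 genes with at least 5 CPM; genes are not independent replicates), but the labels do not say what the number stands for. The call of PAX5 among leukocyte markers went from 1 to 0 with a filter of 50 counts, which leaves that gene out, and ranged from 0 to 1 without 1 library. Some log2 fold changes changed sign: over the fits without 1 library they ran from -0.18 to 0.32 for HLA-DQA2 (-0.18 and -0.074 without HER2 L755S 2 and HER2 WT 2), -0.74 to 0.72 for HLA-DOB (-0.74 and -0.0058 without the same libraries), -0.88 to 0.021 for JAK2 (positive without HER2 WT 2), -0.028 to 0.60 for CD58 (negative without HER2 L755S 2), -0.50 to 0.070 for TNFSF9 (positive without HER2 WT 1), -0.58 to 0.56 for CORO1A (0.56 and 0.15 without HER2 WT 1 and HER2 L755S 2) and -0.69 to 0.32 for ERBB2 (positive without HER2 L755S 2); the cause was not tested.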
